A study of Sus scrofa with 8 samples.

Results

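Transcripts of 10 genes of NAD metabolism were followed in longissimus dorsi muscle, which runs along the back, of crossbred (Duroc x Landrace x Yorkshire) weaned piglets. They are the salvage enzyme NAMPT, the nicotinamide riboside kinases NMRK1 and NMRK2, the NMN adenylyl transferases NMNAT1, NMNAT2 and NMNAT3, and the sirtuins SIRT1, SIRT2, SIRT3 and SIRT5. The genes were taken by symbol from the deposited table, where each of the 10 matched 1 of 23235 rows. Membership goes by symbol, but the symbols were chosen by their place in muscle NAD metabolism with the fold changes and FPKM of these melatonin and control libraries already known, so every difference between the groups is given for these genes as a description, without a test.

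Melatonin libraries (4) came from piglets that received 5 mg melatonin per kg body weight in 10 mL sterile saline, and control libraries (4) from piglets that received the same volume of saline. Both were given by gavage once a day for 23 days, after 5 days of adaptation, to animals weaned at 28 days of age and randomised 6 to a group. Melatonin is the pineal hormone that signals darkness. All animals ate the same basal diet, and poly(A) RNA was sequenced, with total counts of 53471667 to 60629098 per library. The labels name a group and a replicate number and no animal, so each library was taken as a separate piglet, and the spread quoted is that between these samples. The fibre genes ACTA1 and CKM, which define skeletal muscle, measured at least 49047 and 10937 FPKM in each library. In 2 libraries, melatonin replicates 1 and 3, the sum of 7 fibroblast and matrix genes stood apart, at 8462 and 2525 FPKM. It was 657 and 666 FPKM in melatonin replicates 2 and 4 and 480 to 947 FPKM in controls. COL1A1 (3457 and 913 FPKM in melatonin replicates 1 and 3) and COL1A2 (3550 and 908) made up most of it. DCN and PDGFRA were also highest in these 2 libraries. In melatonin replicate 3, COL3A1, LUM and POSTN lay below control replicate 1, and POSTN did so in melatonin replicate 1 too.

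NAD carries electrons between metabolic pathways and is also consumed as a substrate by enzymes such as the sirtuins, which remove acyl groups from proteins and release nicotinamide. NAMPT turns that nicotinamide into nicotinamide mononucleotide (NMN) and is regarded as the rate-limiting step of salvage. NMRK1 and NMRK2 make NMN from nicotinamide riboside, and the NMNAT enzymes join NMN to ATP to complete NAD, in the nucleus (NMNAT1), on Golgi and vesicle membranes (NMNAT2) and in mitochondria (NMNAT3). These roles were worked out in human and mouse cells.

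Levels are given in FPKM, fragments scaled to the length of the transcript and to the library, which allows genes of different length to be compared. Averaged over the 8 libraries, SIRT2 was the most abundant at 26.5 FPKM, followed by SIRT5 (20.1), NMRK2 (17.4) and NAMPT (9.16). Far below these came SIRT3 (2.22), SIRT1 (2.05), NMNAT3 (2.05), NMNAT2 (1.88), NMNAT1 (1.07) and NMRK1 (0.637). The step from NAMPT to SIRT3 was the one place in this order where the ranges of the neighbours over the 8 libraries did not overlap. SIRT2 exceeded SIRT5 in 7 of 8 libraries, SIRT5 exceeded NMRK2 in 5, and NMRK2 exceeded NAMPT in 5. The place of NAMPT in this order depends on its long model in the table, of about 10.6 kb, which sets its FPKM. NMNAT2 exceeded NMNAT1 in 8 of 8 libraries and NMNAT1 exceeded NMRK1 in 7. SIRT3, SIRT1, NMNAT3 and NMNAT2 had no stable order: SIRT1 exceeded NMNAT3 in 2 of 8 libraries. By mean FPKM, SIRT2 lay above 90.2% of the 9821 genes tested and NMNAT1 above 1.80%. NMRK1 was the member that missed the expression filter of a mean of 1 FPKM, which left 9 of 10.

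**Figure D1:**
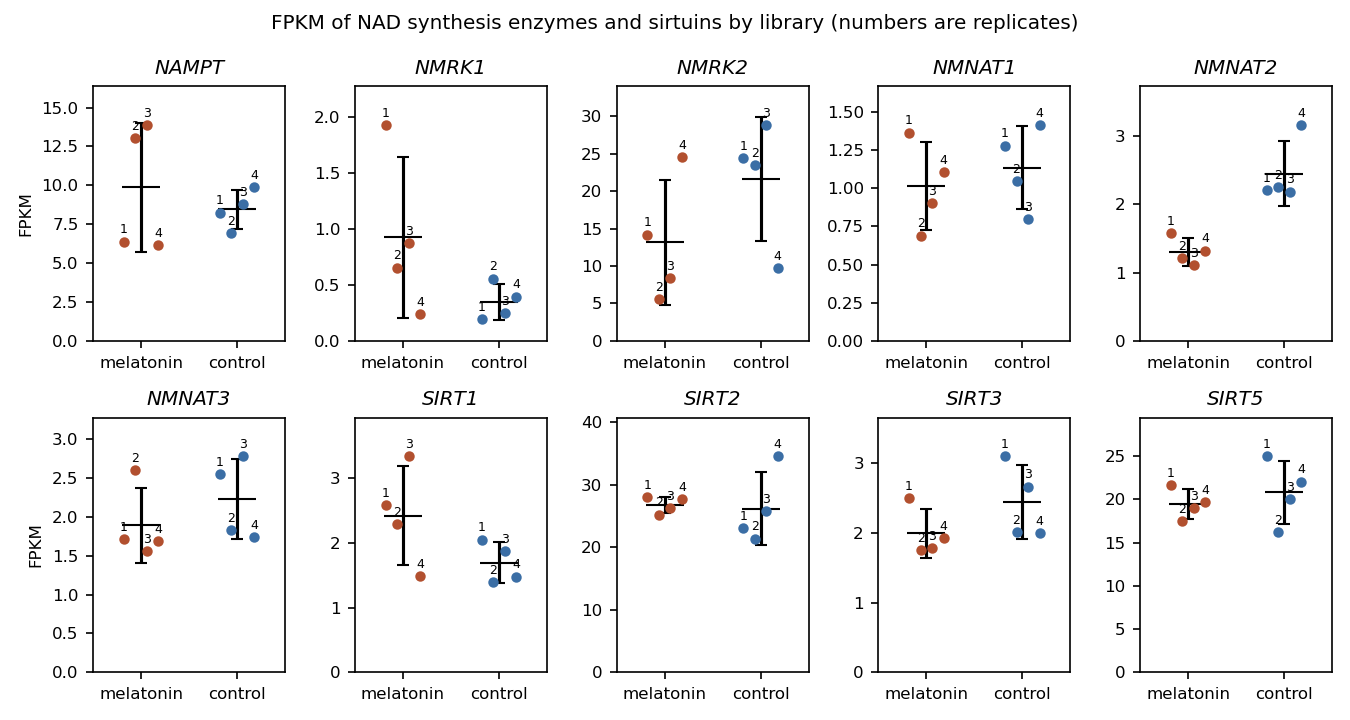
FPKM (y axes, each from 0) of each gene in melatonin and control libraries; points are libraries numbered by replicate, horizontal bars are group means and error bars are SD (n = 4). NMNAT2 was at most 1.58 FPKM in melatonin libraries and at least 2.18 FPKM in control libraries, while the other 9 genes overlapped between the groups.

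Across all genes, edgeR's quasi-likelihood test with Benjamini-Hochberg adjustment called 0 of 9821 genes between melatonin and control (0.0%, smallest adjusted p = 0.440), with 1032 (10.5%) at an unadjusted p under 0.05, 377 lower (3.84%) and 655 higher (6.67%). DESeq2 called 65 (0.662%). NMNAT2 was the 1 member whose groups did not overlap in FPKM. Of all genes tested 216 (2.2%) did not overlap, 105 of them lower (1.07%) and 111 higher (1.13%) after melatonin. Because the list was proposed with this contrast known, nothing is read from these counts. The log2 fold change, melatonin over control, was below 0 in 7 of the 9 members tested, with a median of -0.24. Among all genes tested 50.2% lay below 0 and the median was -0.0014.

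The adenylyl transferases, which join NMN to ATP, differed most in NMNAT2. NMNAT2 (ENSSSCG00000015557, Sscrofa11.1 chromosome 9, 124498109 to 124696194, minus strand) measured 1.58, 1.21, 1.11 and 1.32 FPKM in melatonin replicates 1 to 4, against 2.20, 2.25, 2.18 and 3.16 FPKM in control replicates 1 to 4. All melatonin libraries lay below all control libraries, and control replicate 4 stood apart above the other controls. The group means were 1.30 ± 0.201 and 2.45 ± 0.475 FPKM (melatonin and control, SD, n = 4), a log2 fold change of -0.98 ± 0.19 (SE, edgeR). Counts behind these values were 352 to 492 fragments in melatonin libraries and 674 to 1069 in control libraries. The log2 fold change was between -1.07 and -0.85 when each library was left out in turn, and -0.83 without melatonin replicates 1 and 3. With TMM-scaled values in place of the deposited FPKM the groups still did not overlap.

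NMNAT2 is known in mouse as a survival factor of axons. In bulk tissue, fewer cells of a type and less RNA per cell cannot be told apart.

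NMNAT1 (ENSSSCG00000003400, chromosome 6, 70272014 to 70310707, plus strand) measured 1.36, 0.690, 0.903 and 1.10 FPKM in melatonin libraries, against 1.28, 1.04, 0.798 and 1.42 FPKM in control libraries. NMNAT3 (ENSSSCG00000031142, chromosome 13, 80431404 to 80556790, minus strand) measured 1.71, 2.60, 1.55 and 1.68 FPKM after melatonin, against 2.54, 1.83, 2.77 and 1.74 FPKM in controls. Both groups overlapped for each gene, with log2 fold changes of -0.24 ± 0.25 for NMNAT1 and -0.28 ± 0.26 for NMNAT3. The NMNAT1 value was -0.39 without control replicate 3 or melatonin replicate 4, -0.15 without control replicate 4, -0.14 without melatonin replicate 3 and -0.13 without melatonin replicate 2. The NMNAT3 value was -0.53 without melatonin replicate 2, -0.17 without melatonin replicate 1 or control replicate 3, -0.14 without melatonin replicate 3, and 0.06 without melatonin replicates 1 and 3 together.

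Seen as a family, the adenylyl transferases had less NMNAT2 in every melatonin library than in any control. NMNAT2 made up 33.9, 27.0, 31.0 and 32.1% of the summed FPKM of the 3 genes in melatonin libraries, against 36.5, 43.9, 37.9 and 50.0% in control libraries. The shares did not overlap, and NMNAT3 was the largest of the 3 in all melatonin libraries and in control replicates 1 and 3. The family sum was 4.21 ± 0.488 FPKM after melatonin and 5.80 ± 0.508 FPKM in controls, also without overlap. Both the share and the sum include NMNAT2, so neither is a result apart from the NMNAT2 values above. NMNAT1 and NMNAT3 together gave 2.46 to 3.29 FPKM after melatonin and 2.87 to 3.82 FPKM in controls, which overlapped.

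**Figure D2:**
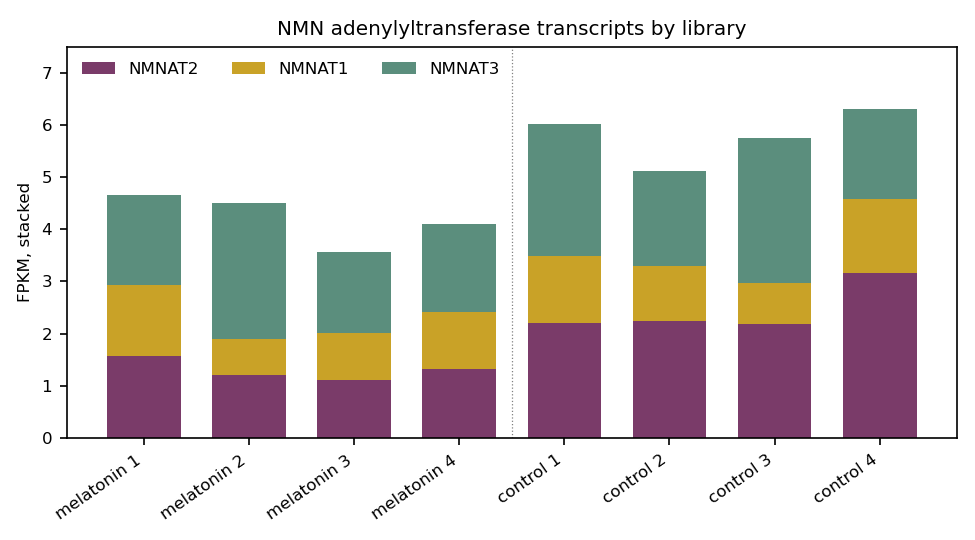
Stacked bars of NMNAT2, NMNAT1 and NMNAT3 in FPKM (y axis) for each library, melatonin replicates left of the dotted line and control replicates right of it. The bars total 3.56 to 4.65 FPKM after melatonin and 5.12 to 6.31 FPKM in controls, and NMNAT2 at the base is lower in all 4 melatonin libraries.

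NAMPT, at the entry of salvage, was split within the melatonin group. NAMPT (ENSSSCG00000015435, chromosome 9, 106119899 to 106294586, minus strand) measured 6.38, 13.0, 13.9 and 6.17 FPKM in melatonin libraries, against 8.24, 6.91, 8.79 and 9.87 FPKM in control libraries. Melatonin replicates 2 and 3 lay above every control and replicates 1 and 4 below every control. The group means of 9.87 ± 4.17 and 8.45 ± 1.23 FPKM therefore differed by less than the spread among melatonin libraries, with a log2 fold change of 0.15 ± 0.27. That value was -0.10 without melatonin replicate 2, 0.04 without replicate 3, 0.27 without replicate 4 and 0.34 without replicate 1. The coefficient of variation was 42.2% after melatonin and 14.6% in controls. NAMPT had 3662 to 8209 fragments per library, the most of the 10 genes except in melatonin replicate 4 (3949, against 3996 for SIRT2). Its model in the table is long: the ratio of count to FPKM gave a length of about 10.6 kb. The model spans 175 kb, against 42.2 kb for NAMPT in the RefSeq annotation of the same build, so its FPKM depends on which transcripts were counted.

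Of the riboside kinases NMRK2, the muscle-enriched form in human and mouse, was the more abundant in every library. NMRK1 made up 12.0, 10.5, 9.41 and 0.974% of their summed FPKM in melatonin libraries, against 0.795, 2.31, 0.847 and 3.90% in control libraries. NMRK2 (ENSSSCG00000040860, chromosome 2, 74785907 to 74791155, minus strand) measured 14.2, 5.57, 8.42 and 24.5 FPKM in melatonin libraries, against 24.4, 23.5, 28.8 and 9.76 FPKM in control libraries. Melatonin replicate 4 reached the level of the upper controls, and control replicate 4 lay among the low melatonin libraries. The means were 13.2 ± 8.36 and 21.6 ± 8.25 FPKM, and the log2 fold change of -0.75 ± 0.50 ran from -1.41 without melatonin replicate 4 to -0.51 without melatonin replicate 2, and was -0.40 without melatonin replicates 1 and 3 together. The biological coefficient of variation of NMRK2, the spread within groups that edgeR estimates, was 48.9%, above that of 96.3% of the genes tested. Slow fibre genes also varied widely between these libraries: 7 of them summed to 5691, 740, 6397 and 3151 FPKM in melatonin replicates 1 to 4, against 10459, 2261, 6373 and 3310 FPKM in control replicates 1 to 4. The lowest sum and the lowest NMRK2 were both in melatonin replicate 2, while control replicate 2, with the next lowest sum, had 23.5 FPKM of NMRK2. The part of fibre makeup in NMRK2 was not tested.

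NMRK1 (ENSSSCG00000005272, chromosome 1, 228113327 to 228141890, minus strand), the widely expressed kinase, was scarce. It measured 1.93, 0.654, 0.875 and 0.241 FPKM in melatonin libraries, against 0.196, 0.555, 0.246 and 0.396 FPKM in control libraries. These values rest on 156, 58, 72 and 23 fragments after melatonin and 16, 49, 21 and 35 in controls, and the exact 95% Poisson intervals ran from 132 to 182 for the highest count and from 9.15 to 26.0 for the lowest, covering counting error only. Fitted without the expression filter, its log2 fold change was 1.12 ± 0.58. Its highest library, melatonin replicate 1, was also highest in the fibroblast and matrix sum (8462 FPKM) and in the sum of 5 adipocyte genes, 219, 73.1, 193 and 13.7 FPKM in melatonin libraries and 40.9, 21.8, 126 and 29.1 FPKM in control libraries. Macrophage genes (4) summed to 15.7, 9.58, 15.2 and 4.45 FPKM in melatonin libraries and 4.47 to 9.85 FPKM in controls. Here melatonin replicates 1 and 3 were nearly equal. The lowest NMRK1 was in control replicate 1, which had the highest fibroblast and matrix sum of the controls (947 FPKM). Control replicate 3, highest of the controls in the adipocyte sum, had 0.246 FPKM of NMRK1. The part of these cells in NMRK1 was not tested.

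NAMPT and NMRK2, which make the same product from different precursors, had a negative correlation over the 8 libraries that did not pass adjustment over the 45 pairs. The ratio of NAMPT to NMRK2 in FPKM was 2.34 and 1.65 in melatonin replicates 2 and 3 and 1.01 in control replicate 4, against 0.449 and 0.252 in melatonin replicates 1 and 4 and 0.294 to 0.338 in the other controls. On log2 FPKM over 8 libraries Pearson's r was -0.76 (exact permutation p = 0.0366, two-sided) and Spearman's rho was -0.64 (exact permutation p = 0.0962). Of 45 pairs among the 10 genes, 0 passed after Benjamini-Hochberg adjustment by either measure (1 each at an unadjusted p under 0.05), and the adjusted p for this pair was 0.732 for r and 0.704 for rho. Leaving out the 2 libraries farthest from the median of NAMPT brought r to -0.29, so the relation rests on those libraries. Taken about the mean of each group, r was -0.79. The other pair at an unadjusted p under 0.05 was NMNAT2 with SIRT1, by rho alone (-0.76, exact permutation p = 0.0368, adjusted p = 0.704, r = -0.64, and r = -0.28 without the 2 farthest libraries). Taken about the mean of each group, its r was -0.35. The permutations ran over all 8 libraries, so they also took in the differences between the groups. Nothing is read from the p-values of this pair.

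**Figure D3:**
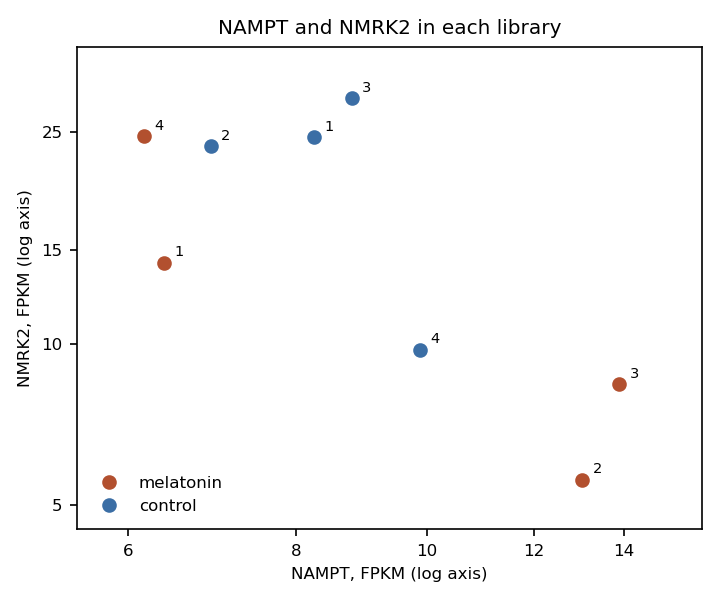
NAMPT (x axis) against NMRK2 (y axis) in FPKM on log axes, with a point for each melatonin and control library numbered by replicate. Melatonin replicates 2 and 3 and control replicate 4 combine the 3 highest NAMPT values (9.87 to 13.9) with NMRK2 values of 5.57 to 9.76.

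Among the sirtuins, SIRT2 and SIRT5 supplied most of the message. SIRT2, a mainly cytosolic deacetylase, and SIRT5, a mitochondrial enzyme that removes succinyl and malonyl groups, together made up 82.3 ± 2.64% of the summed FPKM of sirtuins 1 to 7 after melatonin and 82.1 ± 2.90% in controls. SIRT2 (ENSSSCG00000026794, chromosome 6, 47682429 to 47703384, minus strand) measured 28.0, 25.2, 26.2 and 27.7 FPKM in melatonin libraries, against 23.1, 21.4, 25.7 and 34.5 FPKM in control libraries. Its log2 fold change of -0.03 ± 0.17 changed sign with the setting, for example to 0.10 without control replicate 4. SIRT5 (ENSSSCG00000031129, chromosome 7, 9951030 to 9968448, plus strand) measured 21.7, 17.4, 19.0 and 19.7 FPKM after melatonin, against 25.0, 16.2, 20.0 and 22.0 FPKM in controls, a log2 fold change of -0.16 ± 0.14. That value was -0.26 without melatonin replicate 4, -0.09 without melatonin replicate 3 or control replicate 1, and -0.04 without melatonin replicates 1 and 3 together. SIRT5 had the smallest biological coefficient of variation of the 9 members tested, 17.5%.

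SIRT1 and SIRT3 had log2 fold changes of opposite sign. SIRT1, a nuclear deacetylase whose substrates include PGC-1 alpha and FOXO factors (ENSSSCG00000010235, chromosome 14, 71091167 to 71123297, plus strand), measured 2.57, 2.29, 3.33 and 1.48 FPKM in melatonin libraries, against 2.04, 1.39, 1.87 and 1.47 FPKM in control libraries. Melatonin replicates 1 to 3 exceeded all controls and replicate 4 lay among the lowest, with means of 2.42 ± 0.764 and 1.69 ± 0.313 FPKM and a log2 fold change of 0.41 ± 0.19 (0.26 without melatonin replicates 1 and 3). SIRT3, the main deacetylase of mitochondria (ENSSSCG00000014558, chromosome 2, 38473 to 54558, minus strand), measured 2.50, 1.76, 1.78 and 1.93 FPKM after melatonin, against 3.10, 2.01, 2.66 and 1.99 FPKM in controls, a log2 fold change of -0.37 ± 0.19. On the opposite strand SIRT3 overlaps RIC8A, which averaged 6.13 FPKM, and no source used here says whether counting took account of strand. The ratio of SIRT1 to SIRT3 was 1.03, 1.30, 1.87 and 0.767 in melatonin libraries, against 0.660, 0.689, 0.700 and 0.740 in control libraries. It was nearly constant in controls (0.698 ± 0.033) and higher in all 4 melatonin libraries (1.24 ± 0.470), melatonin replicate 4 by little. The ratio was chosen after the values were seen and was not tested.

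The rest of the NAD network was read from the same fit. Of 48 other NAD genes listed, 42 were in the table and 27 passed the filter. In edgeR 0 of the 27 passed the adjusted test, 1 was lower and 0 higher at an unadjusted p under 0.05, and DESeq2 called 0. Their log2 fold changes had a median of -0.12, with 17 below 0 and 10 above. The other sirtuins SIRT4, SIRT6 and SIRT7 averaged 1.09, 2.04 and 2.65 FPKM over all libraries. SIRT6, a chromatin deacetylase, measured 1.88 ± 0.223 FPKM after melatonin and 2.20 ± 0.143 FPKM in controls (-0.31 ± 0.20), and the nucleolar SIRT7 had a log2 fold change of -0.29 ± 0.19.

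Of 10 genes of de novo and Preiss-Handler synthesis in the table, 2 passed the filter, NAPRT and NADSYN1. Over the 8 libraries both averaged more FPKM than NMNAT1, NMNAT2 or NMNAT3. In controls alone NAPRT (1.73 FPKM) averaged less than NMNAT2 (2.45) and NMNAT3 (2.22), and NADSYN1 (2.35) less than NMNAT2. The other genes of these routes averaged between 0.00496 (QPRT) and 0.802 FPKM (KMO, of tryptophan breakdown) over the 8 libraries. NAPRT, which starts the route from nicotinic acid, measured 5.11, 1.96, 2.08 and 1.27 FPKM in melatonin libraries, against 1.73, 0.795, 2.20 and 2.19 FPKM in control libraries (0.48 ± 0.39). NADSYN1, which completes that route, averaged 2.48 ± 0.854 FPKM after melatonin and 2.35 ± 0.641 FPKM in controls. QPRT, the enzyme that joins the tryptophan route to NAD, had 4 fragments in melatonin replicate 3 (0.0397 FPKM) and was listed at 0 in every other library. Precursor handling gave 2 genes above and 2 below 0 of 4 tested. AOX1, an oxidase that acts on nicotinamide derivatives, measured 3.49, 1.06, 1.73 and 0.635 FPKM after melatonin, against 0.788, 0.466, 1.38 and 0.627 FPKM in controls (0.93 ± 0.44). Its 2 highest libraries, like those of the matrix sum, were melatonin replicates 1 and 3. The nucleoside transporter SLC29A2 had a log2 fold change of -0.67 ± 0.38.

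Enzymes that use NAD outside the sirtuins were evenly divided, 6 above and 6 below 0 of 12 tested. ART1, an ectoenzyme of muscle that attaches ADP-ribose to proteins, measured 16.7, 17.6, 20.3 and 17.9 FPKM in melatonin libraries, against 22.5, 16.7, 26.7 and 23.9 FPKM in control libraries. Its log2 fold change was -0.37 ± 0.15 (edgeR adjusted p = 0.461). PARP3, of DNA repair, had a value of -0.28 ± 0.13 (edgeR adjusted p = 0.490), and CD38, a major NAD consumer elsewhere in the body, averaged 0.190 FPKM after melatonin and 0.161 FPKM in controls. Genes of NADP synthesis, reduction and mitochondrial transport lay below 0 in 6 of 6, with a median of -0.16. Among them NNT, the transhydrogenase of the inner mitochondrial membrane, measured 26.8 ± 4.75 and 32.7 ± 9.88 FPKM (melatonin and control), and the NADH hydrolase NUDT12 had a log2 fold change of -0.37 ± 0.18. None of these 6 was past an unadjusted p of 0.05.

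**Figure D4:**
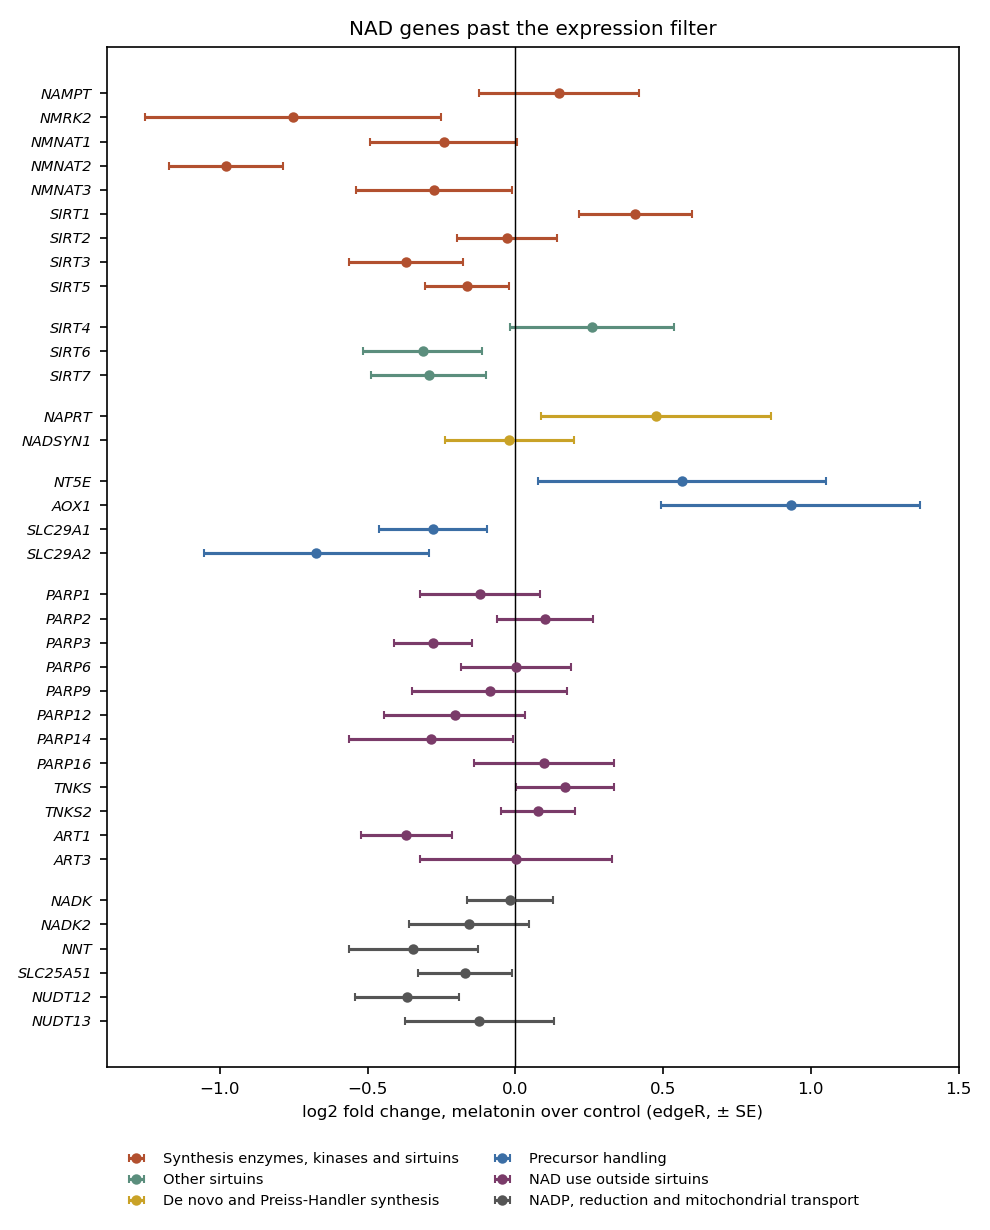
Log2 fold changes, melatonin over control, with SE from edgeR (x axis) for the 9 NAD synthesis and sirtuin genes past the filter and for 27 other NAD genes (y axis), coloured by role. NMNAT2 lies lowest at -0.98 and AOX1 highest at 0.93. Of the 27 other NAD genes, edgeR and DESeq2 each called 0 after adjustment over all genes.

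Genes on which sirtuins act, and clock genes, were listed as well. Of 15 sirtuin substrates and partners tested, 0 passed the adjusted test in edgeR and in DESeq2, with 1 higher and 2 lower at an unadjusted p under 0.05 and a median of -0.12. FOXO3, a transcription factor of fasting and atrophy, measured 8.45, 13.3, 28.3 and 5.13 FPKM in melatonin libraries, against 5.22, 6.37, 4.32 and 5.47 FPKM in control libraries (1.21 ± 0.41, edgeR adjusted p = 0.440), and its 2 highest libraries were those of NAMPT. PPARGC1A, which encodes PGC-1 alpha, measured 1.12, 1.31, 1.58 and 0.580 FPKM in melatonin libraries, against 1.79, 1.62, 1.85 and 1.34 FPKM in control libraries (-0.64 ± 0.25, edgeR adjusted p = 0.453), and the groups overlapped. Of 9 clock genes tested 0 passed by either tool, with a median of 0.07 and 1 higher at an unadjusted p under 0.05. That gene was CRY1, a repressor of the clock loop (0.59 ± 0.19, edgeR adjusted p = 0.440), while DBP, a clock output factor, gave -0.51 ± 0.32. CLOCK and BMAL1 drive Nampt in mouse. Here CLOCK measured 2.21, 2.34, 2.70 and 2.58 FPKM after melatonin, against 1.69, 2.36, 1.77 and 3.09 FPKM in controls, and ARNTL, which encodes BMAL1, measured 2.32, 2.61, 2.55 and 1.69 FPKM, against 0.611, 1.44, 1.85 and 2.10 FPKM.

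Marker genes of fibres and other cells were read in the same fit, and 0 in these lists passed the adjusted test in edgeR or DESeq2. At an unadjusted p under 0.05, 4 of 7 fibroblast and matrix genes and 1 of 5 endothelial genes were higher. The 2 with the smallest p in the matrix list were COL1A1 (2.98 ± 0.90) and COL1A2 (3.07 ± 0.94), chains of type I collagen. For fibres they were DES (-0.41 ± 0.21) and TNNT3 (-0.28 ± 0.27), and for slow fibres MYL3 (-0.81 ± 0.56) and MYL2 (-0.75 ± 0.62). Adipocyte genes gave ADIPOQ (1.92 ± 1.23) and PLIN1 (1.75 ± 1.24), and macrophage genes CD163 (1.21 ± 0.58) and CSF1R (0.45 ± 0.28). Of the 3 macrophage genes tested these 2 lay above 0 and CD68 below. Endothelial genes gave TEK (0.43 ± 0.14) and CDH5 (-0.25 ± 0.18), and red blood cell genes HBB (-0.87 ± 0.46) and ALAS2 (-0.62 ± 0.54).

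Genes with the most similar profiles were sought about the mean of each group, so that the contrast between melatonin and control played no part. Likeness was the mean absolute difference in log2 CPM over the 8 libraries, among 8912 named genes tested (8913 for NMRK1). The nearest genes were picked by this measure from all candidates, so small differences and shared high or low replicates follow from the selection. Nothing is read from the likeness itself. NAMPT was nearest to AFTPH, a vesicle trafficking gene (0.09), FOXN2 (0.09) and MCCC1, a mitochondrial carboxylase of leucine breakdown (0.10), against a median difference of 0.37 over all candidates. AFTPH measured 3.00, 5.83, 5.96 and 2.88 FPKM in melatonin libraries, with the same pair of high replicates as NAMPT, and 4.05 to 4.42 FPKM in control libraries. NMRK2 was nearest to EXTL1, a glycosyltransferase of heparan sulfate synthesis (0.20), ITGB6 (0.22) and CPNE2 (0.23), against a median of 0.68. EXTL1 measured 11.08, 7.38, 7.59 and 24.2 FPKM after melatonin, against 16.8, 23.3, 21.2 and 6.69 FPKM in controls, which repeats the low control replicate 4 and the high melatonin replicate 4.

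NMNAT2 was nearest to HECTD4, LSM14B and TTC21B (0.05 to 0.06), whose own log2 fold changes were -0.16, -0.12 and 0.05. Over all genes tested the median absolute log2 fold change was 0.19, so small values were usual among them. Nothing is read from this comparison with NMNAT2. SIRT1 was nearest to LSM6, SLC30A6 and TTC33 (0.05 each) and SIRT3 to ZNF784, the complex I assembly gene NDUFAF7 and HIRIP3 (0.05 to 0.07), against medians of 0.28. NMRK1 was nearest to SLC15A3, IGSF8 and the matrix gene MATN2 (0.29 to 0.30, median 0.63), of which MATN2 measured 19.1 FPKM in melatonin replicate 1 and 2.42 to 7.45 FPKM in the other melatonin libraries. In the deposited annotation 9 of the 10 genes carry the nicotinate and nicotinamide pathway term, the exception being NMNAT3.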

How the data were processed

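RNA of 8 libraries, 4 melatonin and 4 control, was read from 1 deposited gene table. Per the file headers it holds, for each of 23235 Ensembl genes, a whole-number count and an FPKM value from the authors. Per the labels' protocols, poly(A) RNA was converted with dUTP marking of the second strand and read in pairs. Per the submitters' processing notes, FastQC, StringTie, DESeq2 and the build Sscrofa11.1 were used; their roles, and the aligner and gene annotation, are not given in the sources used. Deposited counts and FPKM differed by gene and library constants to within 0.234% in 3458 genes with at least 1000 counts in every library. All columns of values were mapped to libraries, with 0 left over. Symbols were added for 128 genes from a gene name table and for 105 from NCBI gene numbers.

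Genes with a mean FPKM of at least 1 (9821) were tested in edgeR 4.0.16 (R 4.3.3) on the deposited counts, with TMM scaling (factors 0.851 to 1.19) and quasi-likelihood F tests (legacy setting), without covariates, and Benjamini-Hochberg adjustment at 0.05. SE is the log2 fold change divided by the root of F. The fit was tested on simulated data. No pair of libraries was a duplicate (smallest chi-square per degree of freedom 75.7). The 10 members, the lists and the tests were chosen with earlier results of these data known. Named are all members, from each list reported the 2 genes with the smallest unadjusted p (none passed), and the 3 genes most alike to each of 6 members; others were chosen after their values were seen. Likeness used TMM log2 CPM with a prior count of 2. Pairs of members were compared by exact permutation over 40320 pairings in SciPy 1.17.1, and plots were drawn in Matplotlib 3.10.9. Alternatives were median-of-ratios scaling, no filter, a stricter filter (mean FPKM of 5), DESeq2 1.42.0, limma 3.58.1 on log2(FPKM + 1) and log2(FPKM + 0.1), blocking on the replicate number, leaving out each library in turn, and melatonin replicates 1 and 3 left out together; the bias-adjusted quasi-likelihood fit was added after seeing the data. No sequences were used here. The list of nerve markers is not reported here.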

Additional observations from a re-analysis of the deposited data

Results flagged for a closer look

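In 20 groups of 4 libraries (10 genes by group), 2 held a library far from the other 3, and chance flags about 1 in 20 groups. NMNAT2 in control replicate 4 measured 3.16 FPKM, against 2.18 to 2.25 FPKM in the other controls, and lies on the side away from the melatonin libraries. NMNAT3 in melatonin replicate 2 measured 2.60 FPKM, against 1.55 to 1.71 FPKM in the other melatonin libraries.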

How the results depend on the processing

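The count of genes past the adjusted threshold was 0 in the reported fit and under each alternative except DESeq2 (65) and leaving out libraries, where it ran from 0 to 15, the 15 without melatonin replicate 4. The count of other NAD genes past it was 0 under all alternatives run. Of the members, 7 of 9 lay below 0 in the reported fit, 5 to 8 of 9 under the alternatives that keep the same genes, 7 of 10 with no filter, and 2 of 4 at a mean FPKM of at least 5, where fewer genes are tested. Of 148 alternative log2 fold changes of members, 147 moved by less than 1 SD between replicates; NMNAT2 moved to -0.58 on log2(FPKM + 1), a scale that understates low genes. SIRT2 changed sign under 7 alternatives (up to 0.14), NAMPT without melatonin replicate 2 (-0.10), and NMNAT3 without melatonin replicates 1 and 3 (0.06); the cause was not tested. All 20 group levels moved by less than 1 SD under TMM scaling. With the replicate block 0 genes were called and the NAMPT value was 0.05; same-numbered libraries correlated at 0.18, 0.07, 0.17 and -0.03 in their deviations from the group means, so the numbers were not taken as pairs, and in 2 of 4 numbers each library correlated best with its own. Depth limits NMRK1 most, at 16 to 156 fragments per library.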
